A study of Mus musculus with 4 samples.

Results

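The natriuretic peptide system of heart muscle was examined through 8 genes, namely the hormone genes Nppa, Nppb and Nppc, the protease genes Corin and Furin, and the receptor genes Npr1, Npr2 and Npr3. They were picked by symbol from the 22322 genes of the files, and each symbol matched a single row. Cardiomyocytes of male mice (strain not given in the labels or methods) were profiled by RNA sequencing in 2 sham and 2 TAC libraries. TAC stands for transverse aortic constriction, in which the aortic arch is tied narrower so that the left ventricle pumps against a raised load. Surgery was done at 2 months of age and hearts were studied 14 weeks later, although one passage of the methods calls the mice 14 weeks old. The labels and methods name no transgene or deletion for these mice and no drug beyond the ketamine and xylazine anaesthesia of the operation, and all hearts were dissociated by enzyme perfusion. Each library used part of the muscle cells of a single heart, and per the methods the samples came from pairs of sham and TAC mice, so replicates are different animals. Neither labels nor methods say that a replicate number marks such a pair.

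Heart muscle cells make natriuretic peptides as prohormones and release them when the wall is stretched. Nppa encodes the atrial peptide ANP, most abundant in atrial muscle, Nppb encodes the B-type peptide BNP, and Nppc encodes the C-type peptide CNP, which is made largely outside the muscle cell. Corin, a protease on the muscle cell surface, cuts pro-ANP, and Furin, a protease of the secretory pathway, cuts pro-BNP. Npr1 (receptor GC-A) binds ANP and BNP, Npr2 (GC-B) binds CNP, and both make the messenger cGMP inside the cell. Npr3 is the clearance receptor, which takes up all of these peptides and has no cyclase domain.

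Nppb and Nppa lie side by side on mouse chromosome 4, at chr4:147985788-147987205 and chr4:148000722-148002079 of GRCm38 (GENCODE M21), both on the forward strand. Each has 1 annotated transcript of 3 exons, of 781 bases for Nppb and 865 bases for Nppa. All 8 members were found in the RefSeq promoter table (GRCm38.p6, 250 bases before to 50 after a start site), and the promoters of these hormone genes are shown because both genes rose in TAC. Motifs were searched on both strands. The Nppa and Nppb promoters each held 2 matches to the GATA motif GATAA. At least 1 such match stood in 25.4% of 32851 promoters of this length, and at least 2 stood in 5.27%. Capitals mark the matches in 3 stretches of 30 bases, written along the forward strand. The proximal Nppa stretch, chr4:148000639-148000668, pairs the GATA motif (as its reverse complement) with the NK2 motif AAGTG, and the distal stretch, chr4:148000588-148000617, holds the other GATA match. The Nppb stretch, chr4:147985793-147985822, holds both of its GATA matches and the M-CAT motif CATTCC as its reverse complement. It lies 107 to 78 bases before the start site of the promoter table, at 147985900, but inside the first exon of the GENCODE transcript, which begins further upstream. The RefSeq gene record also begins upstream of the stretch, at 147985786. Whether the stretch is promoter or transcript thus depends on the start site used. Both Nppa stretches lie outside the exons of Nppa.
Nppa proximal: ccatcgctTTATCgctgcAAGTGacagaat
Nppa distal: gctttgccgaactGATAActttaaaagggc
Nppb: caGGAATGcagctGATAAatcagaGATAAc

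The NK2 motif stood in 46.4% of all promoters and the M-CAT motif in 14.7%, and the GATA motif stood together with the NK2 motif in 13% and with the M-CAT motif in 3.77%. The promoter windows of Nppc, Corin, Npr1, Npr2 and Npr3 held no match to these 3 motifs. Furin, which has 2 promoters in the table, held 5 NK2 matches in one of them and no GATA or M-CAT match. Neither the AP-1 motif TGANTCA nor the CArG box, found in 7.81% and 1.63% of all promoters, had a match at any member. These matches are descriptions of sequence and no binding was measured.

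The libraries held 24237777 to 32118323 counts. TAC 1 stood apart, with 47.4% of its counts in the 13 protein-coding mitochondrial genes against 39.8% to 40.8% in the other libraries (95% Wilson intervals at most 0.0391 percentage points wide, covering counting error only). Levels are given as CPM, counts relative to library size after TMM scaling, which corrects for composition, or as the deposited FPKM, which is per transcript length. Library values are listed with replicate 1 before replicate 2. A gene was called at an adjusted p under 0.05 in the edgeR quasi-likelihood test, over the 12499 genes that passed a filter on low counts. With 2 libraries against 2, the smallest p that an exact permutation test allows for one gene is 0.33, so each adjusted p rests on a spread pooled over genes.

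Of the 8 members 7 were tested, Nppc being the exception, and 3 were called, Nppa and Nppb higher and Corin lower in TAC. The background was 2.58% of all tested genes called higher and 2.43% called lower, or 322 and 304 genes. That split depends on the scaling, with 105 higher and 423 lower under total counts and 187 higher and 450 lower under totals without mitochondrial genes. Nppa and Nppb were also named as changed by the study on these same libraries, so their calls are not independent evidence. In CPM the groups did not overlap for 7 of 7 tested members (5 higher, 2 lower), where 60.1% of all tested genes were so placed (29.8% higher, 30.3% lower). In FPKM this held for 4 of 7 members (2 higher, 2 lower), where it held for 54.1% of the same genes (8.49% higher, 45.6% lower). Separation of the groups was thus common among all genes and says little about a single member.

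**Figure D1:**
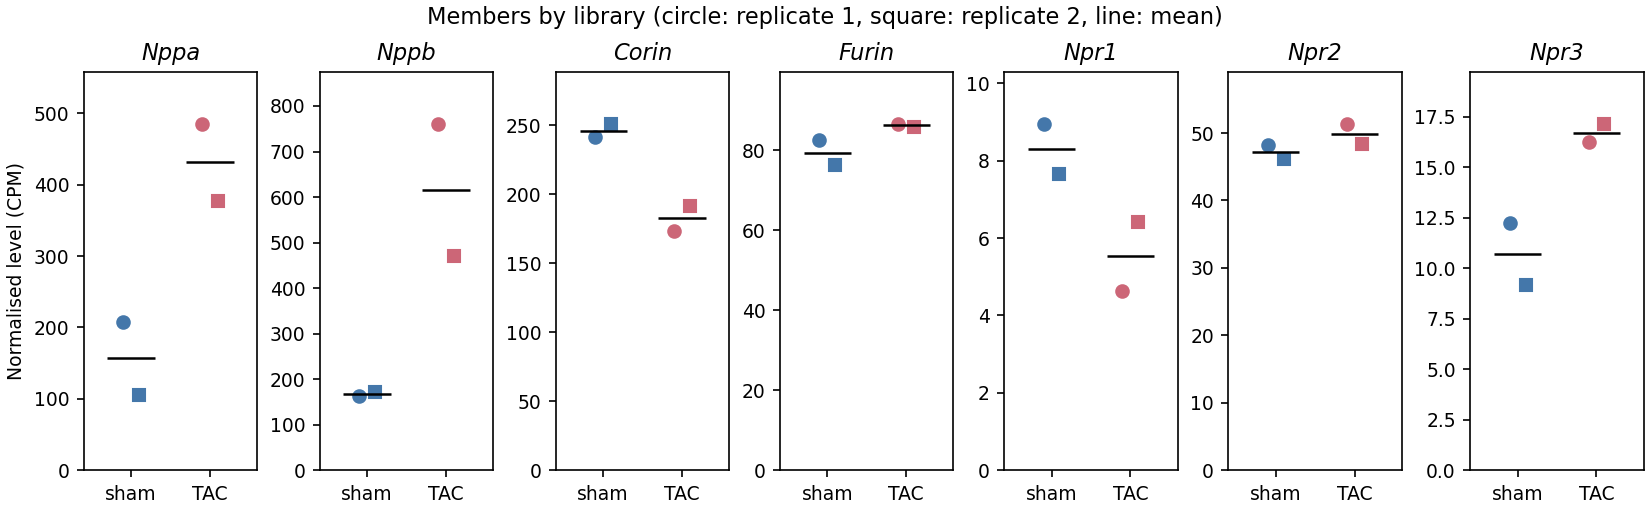
TMM-scaled level (CPM, linear axis from 0) of the 7 tested members in each library, with circles for replicate 1, squares for replicate 2 and lines for group means (n = 2 each). The TAC points of Nppa and Nppb lie far above the sham points, those of Corin and Npr1 lie below, and those of Furin and Npr2 are close to sham.

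Both cardiac hormone genes rose in TAC. Nppb was at 163 and 171 CPM in sham against 760.1 and 471 CPM in TAC, or 167 ± 5.17 and 616 ± 204 CPM as group means (SD, n = 2). The sham libraries were nearly equal, the TAC libraries differed 1.61-fold from each other, and the lower TAC library was still 2.76 times the higher sham library. Its log2 fold change was 1.88 ± 0.20 (SE, edgeR adjusted p = 0.00535), or 3.69-fold, with a 95% interval from 1.42 to 2.35. This placed Nppb at rank 37 of all tested genes by log2 fold change.

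Nppa was at 208 and 106 CPM in sham against 485 and 378 CPM in TAC, or 157 ± 71.9 and 431 ± 75.8 CPM as group means (SD, n = 2). The sham libraries differed 1.96-fold from each other, and the groups did not overlap, the lower TAC library being 1.82 times the higher sham library. The log2 fold change was 1.46 ± 0.28 (SE, edgeR adjusted p = 0.0334), or 2.75-fold, with a 95% interval from 0.81 to 2.11 and rank 62. Without TAC 1 it was 1.27 and no longer called (edgeR adjusted p = 0.0614). Scaling by totals without the mitochondrial genes gave 1.35 (edgeR adjusted p = 0.0531), and scaling by all counts gave 1.25 (0.0306).

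FPKM allows levels of different genes to be compared. Nppb had 229 and 227 FPKM in sham and 845 and 609 FPKM in TAC. Nppa had 263 and 127 FPKM in sham and 487 and 440.4 FPKM in TAC. Among all genes ordered by FPKM, Nppb moved from rank 175 in both sham libraries to ranks 42 and 64 in TAC, and Nppa from ranks 149 and 303 to ranks 72 and 91. Their summed FPKM was 493 and 354 in sham and 1331 and 1049 in TAC.

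The spread of Nppa between the sham libraries was set beside 6 markers of atrial muscle, in which Nppa is most abundant. Myl7, an atrial myosin light chain, was at 25.8 and 1.32 CPM in sham and 8.93 and 12.9 CPM in TAC. Myl4, another atrial light chain, was at 36.7 and 3.3 CPM in sham and 13.6 and 20.2 CPM in TAC. In both genes sham 1 was the highest library and sham 2 the lowest. Over sham 2, sham 1 was higher by 19.5-fold for Myl7, 11.1-fold for Myl4, 7.97-fold for Sln (sarcolipin) and 12.5-fold for Dkk3, where Nppa was 1.96-fold higher and Nppb stood at 0.957 of sham 2. Bmp10, a growth factor of atrial muscle, had 95 counts in sham 1 and 2 to 9 in the other libraries, too few to be tested. Kcnj3, an atrial potassium channel subunit, did not share this pattern, with a ratio of 1.01 between the sham libraries, and it fell in TAC (log2 fold change −0.60 ± 0.07, edgeR adjusted p = 0.00896).

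No atrial marker was at 0, and the 5 tested markers summed to 188 and 114 CPM in sham and 97.7 and 114 CPM in TAC, most of it Kcnj3. Without Kcnj3, a choice made after seeing the data, the other 4 summed to 79.1 and 6.22 CPM in sham and 28.3 and 39.3 CPM in TAC, so that both TAC libraries lay between the sham libraries. Myl7, Myl4, Sln and Dkk3 had overlapping groups (lowest edgeR adjusted p 0.565), with both TAC libraries above sham 2 by 2.35- to 9.79-fold. The part of atrial cells in the Nppa result was not tested. Without sham 1 the log2 fold change of Nppa was 2.03 (edgeR adjusted p = 6.2e-08), and without sham 2 it was 1.06 (0.00109). Nppb was at 1.85 and 1.92 when the same libraries were left out.

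**Figure D2:**
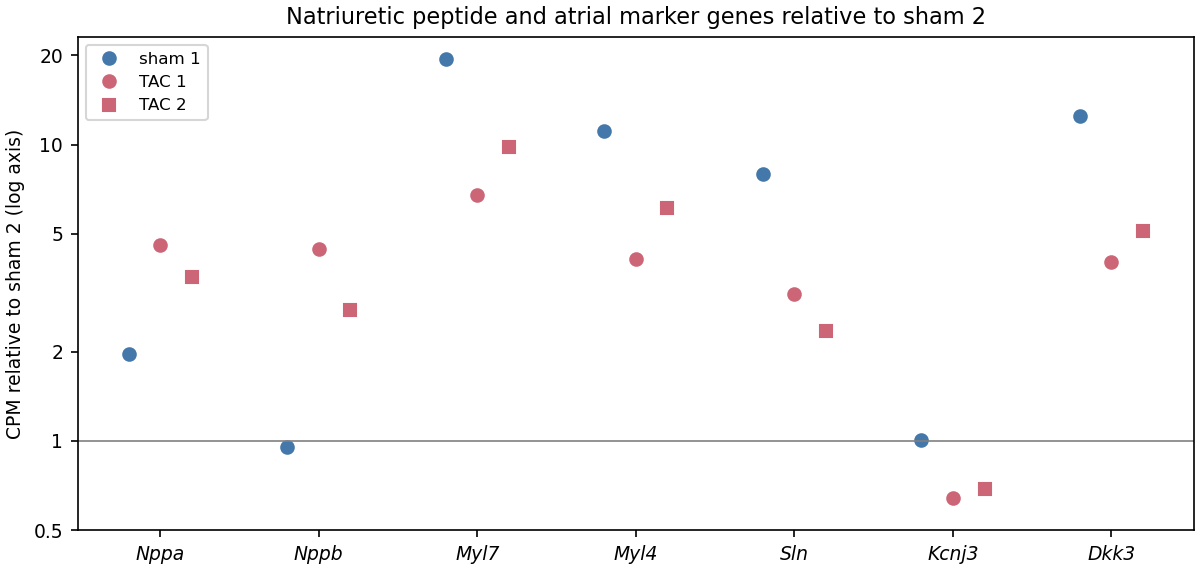
Level (CPM) of Nppa, Nppb and 5 atrial marker genes in sham 1 and both TAC libraries relative to sham 2, on a log axis with a line at 1. Myl7, Myl4, Sln and Dkk3 are highest in sham 1, where Nppa is 1.96-fold and Nppb 0.957-fold of sham 2.

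Nppc (chr1:86666291-86670571, reverse strand) had 0 counts in all 4 libraries. A count of 0 allows up to 3 counts, which is 0.0934 to 0.124 CPM of the library totals. CNP transcript was therefore not detectable at this depth in either group.

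Of the protease genes, Corin fell and Furin was not called. Corin (chr5:72300025-72504473, reverse strand, 22 exons in its longest transcript) was at 241 and 251 CPM in sham against 174 and 191 CPM in TAC, or 246 ± 6.54 and 182 ± 12.4 CPM as group means (SD, n = 2). Replicates lay close together, and the lower sham library was 1.26 times the higher TAC library. The log2 fold change was −0.43 ± 0.08 (SE, edgeR adjusted p = 0.0289), with sham 1.35 times TAC and a 95% interval from −0.62 to −0.25. The call was lost without TAC 1 (−0.36, edgeR adjusted p = 0.102). In FPKM Corin had 56.3 and 55.4 in sham and 32.1 and 41.1 in TAC. Per 100000 CPM of 10 summed cardiomyocyte markers, a quantity chosen after the values were seen, Corin was at 349 and 324 in sham and 242 and 272 in TAC. That sum is made up mainly of Myh6 and Atp2a2. The 10 markers ranged in log2 fold change from −0.38 for Ryr2 to 0.36 for Actn2, 6 of them above 0, and 0 were called by edgeR.

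Furin (chr7:80388585-80405436, reverse strand), a protease made in most cell types, was at 82.5 and 76.3 CPM in sham against 86.5 and 85.9 CPM in TAC. The TAC libraries lay just above the higher sham library. The log2 fold change of 0.12 ± 0.08 was not called (edgeR adjusted p = 0.341, 95% interval −0.06 to 0.29), and with total-count scaling it was −0.07. In FPKM the groups overlapped, with 21.2 and 18.6 in sham and 18.8 and 21.1 in TAC.

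Of the 3 receptor genes 0 were called by edgeR, with 2 at an unadjusted p under 0.05 (27.5% of all tested genes were) and 1 called by DESeq2 (8.76% of all genes with an adjusted p were). All were far below the hormone genes in FPKM. Npr2 (chr4:43631935-43651244, forward strand) had the highest receptor level in every library, with 18.1 and 16.6 FPKM in sham and 15.5 and 16.8 FPKM in TAC. In CPM it was at 48.2 and 46.2 in sham against 51.3 and 48.4 in TAC, the lower TAC library being 1.01 times the higher sham library. Its log2 fold change of 0.08 ± 0.08 (edgeR adjusted p = 0.544, 95% interval −0.11 to 0.27) became −0.11 with total-count scaling. No direction can be given for this receptor.

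Npr1 (chr3:90450591-90465866, reverse strand), through which ANP and BNP act, was at 8.94 and 7.65 CPM in sham against 4.63 and 6.42 CPM in TAC, from 129 to 283 counts. Both TAC libraries were below both sham libraries, and the gap between the nearest of them was 1.19-fold. The log2 fold change of −0.59 ± 0.20 was not called (edgeR adjusted p = 0.11, 95% interval −1.05 to −0.13). It was −0.84 and called without TAC 2 (edgeR adjusted p = 0.0357) and −0.37 without TAC 1 (0.371). In FPKM Npr1 had 2.49 and 1.95 in sham and 0.99 and 1.72 in TAC.

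Npr1 is also made by endothelial cells, and markers of that cell type were lower in TAC too. All 10 endothelial markers had a negative log2 fold change, and none was at 0. By edgeR 3 were called (2.43% of all tested genes were called lower) and 9 were at an unadjusted p under 0.05 (27.5% were). DESeq2 called 7 (8.76% of all genes with an adjusted p were called). The markers summed to 625 and 504 CPM in sham and 306 and 421 CPM in TAC. In bulk RNA, fewer cells of a type and less RNA per cell cannot be told apart. Per 100 CPM of summed endothelial markers, again chosen after the values were seen, Npr1 was at 1.43 and 1.52 in sham and 1.51 and 1.53 in TAC. On this scale the 4 libraries were nearly level. The summed fibroblast, mural and macrophage markers were also lower in both TAC libraries than in both sham libraries. A lower sum was thus not particular to endothelial markers, and the part of endothelial cells in the Npr1 result was not tested. Per 100000 CPM of the cardiomyocyte markers Npr1 was at 12.9 and 9.87 in sham and 6.46 and 9.15 in TAC, where both TAC libraries stayed below both sham libraries.

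Npr3 (chr15:11839896-11907287, reverse strand), the clearance receptor, was at 12.3 and 9.17 CPM in sham against 16.2 and 17.1 CPM in TAC, from 264 to 453 counts. The TAC libraries lay close together and the lower was 1.32 times the higher sham library. The log2 fold change of 0.64 ± 0.15 missed the threshold in edgeR (adjusted p = 0.0577, 95% interval 0.28 to 0.99). DESeq2 called it at the same size (adjusted p = 0.0245), and without sham 1 it was 0.86 (edgeR adjusted p = 0.00508). With total-count scaling it was 0.45 (edgeR adjusted p = 0.203), and in FPKM the groups overlapped, with 2.39 and 1.65 in sham and 2.32 and 2.94 in TAC. Per 100 CPM of the same endothelial markers Npr3 was at 1.96 and 1.82 in sham and 5.3 and 4.07 in TAC, a ratio whose denominator was itself lower in TAC. Per 100000 CPM of the cardiomyocyte markers it was at 17.7 and 11.8 in sham and 22.7 and 24.4 in TAC.

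**Figure D3:**
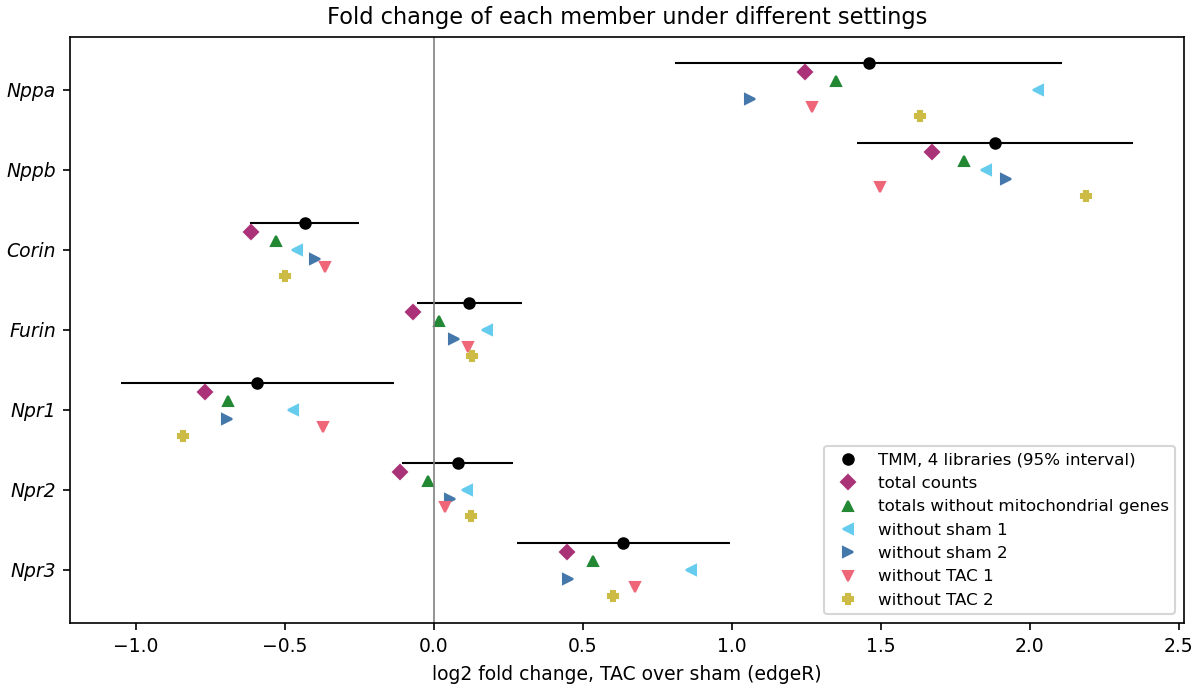
Log2 fold change (TAC over sham, edgeR) of the 7 tested members with TMM scaling and its 95% interval (black), with other scalings and with each library left out in turn. Nppa, Nppb and Npr3 stay above 0 and Corin and Npr1 below 0 in all settings drawn, and Furin and Npr2 lie around 0, with total-count scaling below it.

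The study scaled its libraries by total counts. Under that scaling the tested genes had a median log2 fold change of −0.20, against −0.01 with TMM. All members shifted down by about as much and kept their order, with Nppb at 1.67, Nppa at 1.25, Npr3 at 0.45, Corin at −0.61 and Npr1 at −0.77. Nppb, Nppa and Corin (edgeR adjusted p = 0.0379) were called under this scaling as well.

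Ratios between members within a library do not depend on library scaling, and are given in FPKM as descriptions with no test. Nppb to Corin was 4.08 and 4.1 in sham and 26.3 and 14.8 in TAC. Nppa to Corin was 4.68 and 2.3 in sham and 15.2 and 10.7 in TAC. Both hormone transcripts were thus higher relative to that of the ANP-cleaving protease in TAC. Nppb to Furin, its own protease, was 10.8 and 12.2 in sham and 45.0 and 28.8 in TAC. Corin to Furin was 2.65 and 2.97 in sham and 1.71 and 1.94 in TAC.

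Between the hormone genes, Nppb to Nppa was 0.872 and 1.79 in sham and 1.74 and 1.38 in TAC. These groups overlapped, and sham 1 alone of the 4 libraries had more Nppa than Nppb. Between the receptors, Npr3 to Npr1 was 0.96 and 0.846 in sham and 2.34 and 1.71 in TAC, so the clearance receptor was the lower of the pair in both sham libraries and the higher in both TAC libraries. Npr2 to Npr1 was 7.27 and 8.49 in sham and 15.7 and 9.74 in TAC. The transcript length implied by count and FPKM varied between libraries, from 3766 to 4076 bases for Npr1 and from 5628 to 6079 bases for Npr3, which carries into these ratios. For Nppa and Nppb it was the same in all 4 libraries.

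**Figure D4:**
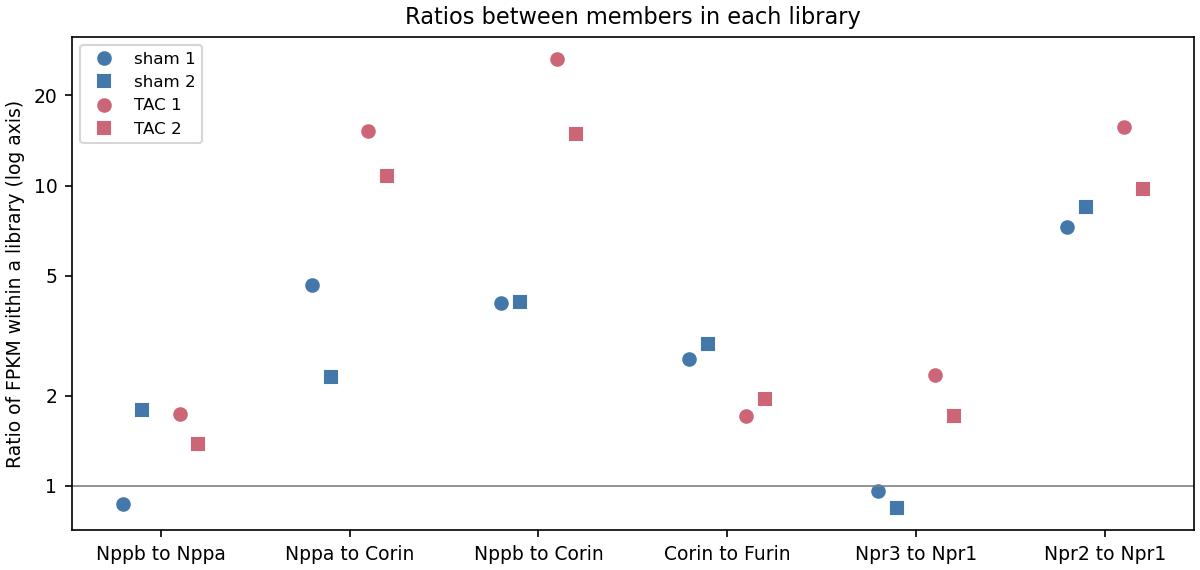
Ratios of FPKM between members within each library, on a log axis with a line at 1 (blue sham, red TAC, circles replicate 1, squares replicate 2). The hormone to Corin ratios and the Npr3 to Npr1 ratio lie higher in both TAC libraries, and the Nppb to Nppa ratio overlaps between groups.

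The hormone pair was also compared with its neighbours on the chromosome. The end of Nppb and the start of Nppa are 13516 bases apart. Of the 6 protein-coding genes on each side, 11 of 12 were tested and 0 were called by edgeR. At an unadjusted p under 0.05 there were 2 (27.5% of all tested genes were). DESeq2 called 0 and limma on FPKM called 1 (3.9% of all genes in that fit were called). Their median log2 fold change was −0.0027, between −0.80 for Miip (edgeR adjusted p = 0.0763) and 0.32 for Fv1. The gene before Nppb, 2510039O18Rik, was at 36.0 and 38.0 CPM in sham against 43.4 and 40.7 CPM in TAC (log2 fold change 0.18 ± 0.08, edgeR adjusted p = 0.202). The gene after Nppa, Clcn6, which encodes a chloride and proton exchanger, was at 10.7 and 7.92 CPM in sham against 8.43 and 9.53 CPM in TAC (−0.06 ± 0.18, edgeR adjusted p = 0.856).

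**Figure D5:**
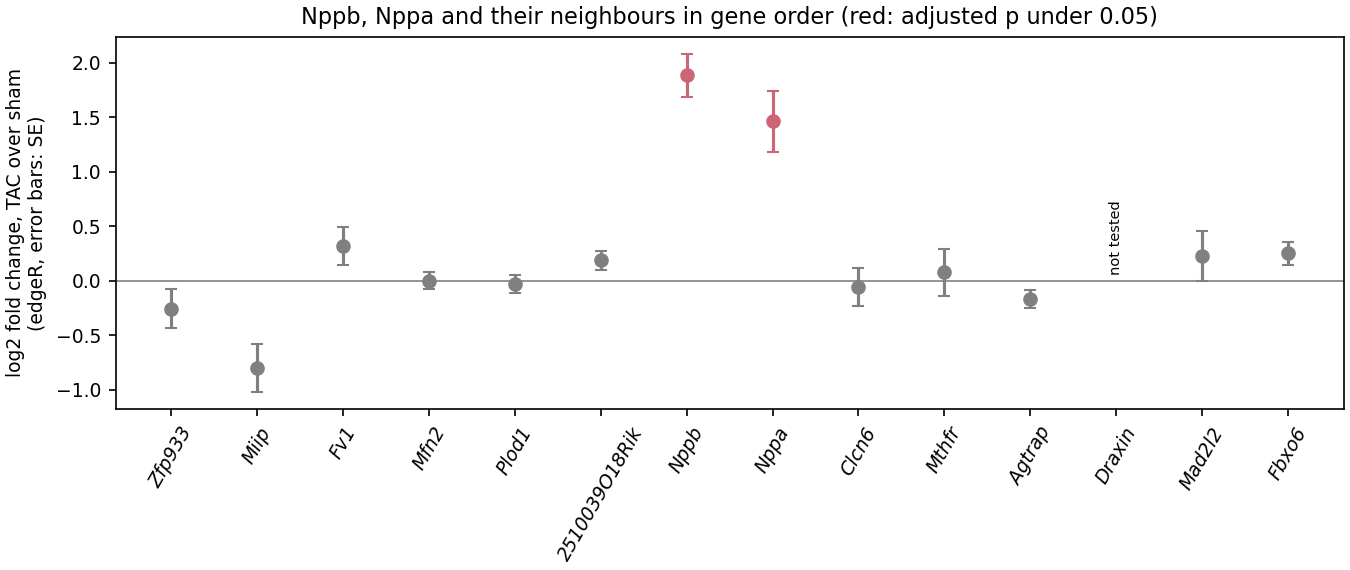
Log2 fold change (TAC over sham, edgeR, error bars SE) of Nppb, Nppa and the 6 protein-coding genes on each side in gene order, not to scale in distance. Nppb and Nppa stand at 1.88 and 1.46, and the tested neighbours lie between −0.80 and 0.32.

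Genes with a like pattern were sought by centring the 4 log2 CPM values of each gene on their mean and taking the Euclidean distance over the 4 libraries, among 8491 genes with at least 5 CPM on average. The 5 nearest to Nppa were Adam19 (distance 0.19), Tpm2 (0.34), Rhou (0.40), Arntl (0.40) and Shb (0.52). Adam19, a membrane metalloprotease, was at 27.4 and 13.2 CPM in sham and 54.1 and 46.8 CPM in TAC. Its likeness to Nppa, also between the sham libraries, follows from the way it was picked. Those near Nppb included Nlrc3 (0.19), Aqp8 (0.29), Abra (0.34) and Myot (0.44). Abra, an actin-binding protein of striated muscle, was at 43.4 and 38.2 CPM in sham and 229 and 108 CPM in TAC. Nppa itself ranked 37 by likeness to Nppb (distance 0.83), so other genes followed each hormone gene more closely than they followed each other.

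The wider pathway was read from 5 lists of 44 genes, of which 40 were tested. Of these 1 was called higher and 1 lower, where 5.01% of all tested genes were called in either direction. A negative log2 fold change was found for 29 and a positive one for 11, with a median of −0.14 against −0.01 over all tested genes. Both calls fell among the 17 cardiac factors linked to the natriuretic promoters. Of the 17, 6 were at an unadjusted p under 0.05 (27.5% of all tested genes were). DESeq2 called 4 (8.76% of all genes with an adjusted p were called). The further DESeq2 calls were Tead1 at 0.29 (DESeq2 adjusted p = 0.0304, edgeR 0.0642) and Zfpm2 at −0.57 (DESeq2 0.0481, edgeR 0.0786). Srf, the serum response factor, rose from 52.8 and 54.3 CPM in sham to 76.5 and 70.0 CPM in TAC (log2 fold change 0.45 ± 0.08, edgeR adjusted p = 0.0278), and was at 0.26 and not called with total-count scaling (0.213). Tbx5, a T-box factor of heart muscle, fell from 18.1 and 17.9 CPM to 7.96 and 11.5 CPM (−0.89 ± 0.17, edgeR adjusted p = 0.0348). Without TAC 1 neither was called, with Srf at 0.39 (edgeR adjusted p = 0.085) and Tbx5 at −0.64 (0.0613). Gata4, the most abundant of these factors in FPKM and one that binds GATA motifs, was at 104 and 101 CPM in sham and 114 and 96.0 CPM in TAC, with overlapping groups (0.03 ± 0.09, edgeR adjusted p = 0.856).

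The other 4 lists held 0 called genes by edgeR among 23 tested, with 8 at an unadjusted p under 0.05, where 27.5% of all tested genes were. DESeq2 called 2 of the 16 to which it gave an adjusted p (8.76% of all such genes were called). Limma on FPKM called 2 (3.9% of all genes in that fit were called). Among peptide turnover and convertase genes, Ide, an enzyme that degrades insulin and natriuretic peptides, was at −0.03 on the log2 fold change scale (edgeR adjusted p = 0.868), and the convertase Pcsk7 at −0.22 (0.244). Pcsk6, the convertase that activates corin, was singled out after its values were seen. It was at 18.2 and 13.1 CPM in sham and 5.99 and 9.82 CPM in TAC, with a log2 fold change of −0.997 that was not called in this fit (edgeR adjusted p = 0.0619). The call depended on the setting. Pcsk6 was called by DESeq2 (adjusted p = 0.00316) and with total counts (edgeR, 0.0484) or the replicate block (edgeR, 0.0447), but not with RLE factors (edgeR, 0.0655), totals without mitochondrial genes (edgeR, 0.0669) or without TAC 1 (−0.68, edgeR, 0.154). Gucy1b1 and Gucy1a1, the subunits of the cyclase that answers nitric oxide rather than natriuretic peptides, had log2 fold changes of −1.05 (edgeR adjusted p = 0.0557) and −0.93 (0.094). Gucy1b1 was called by DESeq2 (adjusted p = 0.0135) and with total counts (edgeR, 0.0484) or the replicate block (edgeR, 0.0427), but not with RLE factors (edgeR, 0.0592), totals without mitochondrial genes (edgeR, 0.0583) or without TAC 1 (−0.71, edgeR, 0.127). Gucy1a1 was called without the low-count filter (−0.93, edgeR adjusted p = 0.0126). It was not called with total counts (edgeR, 0.0766), the replicate block (edgeR, 0.103) or DESeq2 (0.0521). With single libraries left out, Gucy1a1 ran from −1.34 without TAC 2 to −0.60 without TAC 1.

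All 9 phosphodiesterases of cGMP had a negative log2 fold change, with a median of −0.35. Of these 0 were called by edgeR, 3 were at an unadjusted p under 0.05 (27.5% over all tested genes), and DESeq2 gave 4 of them an adjusted p and called 0. The most abundant of them in FPKM were Pde3a (log2 fold change −0.07, edgeR adjusted p = 0.653) and Pde1c (−0.35, 0.0835). Pde1c was called with totals without mitochondrial genes (−0.45, edgeR adjusted p = 0.0431) or without the low-count filter (−0.35, edgeR, 0.032). It was not called with total counts (edgeR, 0.0553), the replicate block (edgeR, 0.1) or DESeq2 (0.0791). Without sham 1 Pde1c was at −0.47. Of the kinases and effectors downstream of cGMP, Ppp1r12a, a subunit of myosin phosphatase, was at 0.15 on the same scale (edgeR adjusted p = 0.258). Rgs2, a regulator of G-protein signalling, was at −0.51 (edgeR adjusted p = 0.379), with TAC 1 at 6.96 CPM apart from the 15.04 to 19.1 CPM of the other libraries. The value of Rgs2 rested on which TAC library was used, at 0.01 without TAC 1 (edgeR adjusted p = 0.979) and −1.29 and called without TAC 2 (0.00505).

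Markers of other cell types moved with the groups and stand beside these lists. Every tested marker of fibroblasts (10), mural cells (8) and macrophages (8) had a negative log2 fold change, with 2, 2 and 0 called by edgeR (2.43% of all tested genes were called lower) and none at 0. At an unadjusted p under 0.05 there were 7 fibroblast and 7 mural markers (27.5% of all tested genes were). DESeq2 called 4 and 3 (8.76% of all genes with an adjusted p were called). The macrophage list had 5 of 8 genes at an unadjusted p under 0.05, where 27.5% of all tested genes were, and 0 called by DESeq2 of the 7 with an adjusted p. Summed levels in sham and TAC were 202 to 284 and 128 to 167 CPM for fibroblasts, 739 to 782 and 435 to 567 CPM for mural cells (Abcc9, a channel subunit that heart muscle cells also make and one of the called genes, at 380 and 406 CPM in sham and 279 and 303 CPM in TAC), and 60.02 to 116 and 31.7 to 58.3 CPM for macrophages. The 10 cardiomyocyte markers summed to 69272 to 77496 CPM in sham and 70140 to 71662 CPM in TAC, with a median log2 fold change of 0.04. By edgeR 0 were called and 3 were at an unadjusted p under 0.05 (27.5% of all tested genes were). DESeq2 called 3 (8.76% of all genes with an adjusted p were called). The part of these cells in the results of the receptor and pathway genes was not tested.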

How the data were processed

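For each library the authors deposited expected counts (estimated, not always whole) and FPKM values per gene. The submitters' processing notes name mm10, Bowtie2 2.2.8 and StringTie 1.3.1, and no source used here gives the counting program or whether strand was used. For Nppa and Nppb the counts, FPKM and column totals imply lengths of 865 and 781 bases, those of their GENCODE M21 transcripts. Antisense genes that have no row in the files overlap exons of Nppa (Gm13054, 532 bases), Corin, Furin, Npr1, Npr2 and Npr3, and their reads cannot be told apart without strand.

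Counts were rounded, filtered with filterByExpr, scaled by TMM and tested with glmQLFit and glmQLFTest of edgeR 4.0.16 in R 4.3.3, with Benjamini-Hochberg adjustment over 12499 genes. SE is the log2 fold change over the square root of F. The script was tested on simulated data in which all genes shared a common spread. It called 43.3% of 1.5-fold, 88.1% of 2-fold and 100% of 4-fold changes. Replicates differed beyond sampling noise (chi-square 9.19 and 31.3 per degree of freedom in sham and TAC) and all were kept. Totals ran from 24237777 to 32118323 counts, and single members apart from Nppc from 129 to 21193. Alternatives were total counts, totals without mitochondrial genes, RLE factors, DESeq2 1.42.0, no filter, a replicate block, limma 3.58.1 on log2(FPKM + 1) or log2(FPKM + 0.1) at a mean FPKM over 0.5 or unfiltered, and each library left out. Named genes were the members, called pathway genes, the 2 highest in FPKM of each list, adjacent neighbours and the 5 nearest genes, of which 1 is not reported here. Members and lists were chosen with earlier results of these data known.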

Additional observations from a re-analysis of the deposited data

How the results depend on the processing

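In every fit run Nppa, Nppb and Npr3 kept a positive and Corin and Npr1 a negative log2 fold change, while Furin and Npr2, never called, changed sign with the scaling. Nppc had no counts and no value under any alternative. At this depth Nppc was not detectable. Causes of the moves below were not tested, beyond fewer libraries or other genes in a fit.

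By setting, the counts of all genes, members and pathway genes called were 626, 3 and 2 as reported. Without the low-count filter they were 1676, 5 and 10, with Npr1 at −0.59 (edgeR adjusted p = 0.0453) and Npr3 at 0.64 (0.00662) called. Unfiltered limma on log2(FPKM + 1) called 0, 0 and 0, with Nppa at 1.33 (adjusted p = 0.256), Nppb at 1.65 (0.201) and Corin at −0.61 (0.226), where the filtered fit called all 3 of these. Limma on log2(FPKM + 0.1) called 370 genes. Pathway calls were 6 with DESeq2, 5 with total counts, 4 with totals without mitochondrial genes and 4 with limma on log2(FPKM + 1). Npr3 was called by DESeq2 (0.64), and Nppa was lost with totals without mitochondrial genes (1.35).

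Replicate numbers gave no sign of pairing, with a correlation of −0.26 between deviations of same-numbered libraries. The replicate block called 566 genes, all 3 called members and 4 pathway genes, with Nppa at 1.53 and Npr3 at 0.65. The crossed pairing called 2131, 5 and 11, with Npr1 at −0.60 and Npr3 at 0.65. That pairing was chosen after seeing the negative correlation, so its calls add no independent support.

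Leaving out each library gave 301 (without TAC 1) to 1336 genes (without TAC 2), 1 to 4 members and 0 to 8 pathway genes. Log2 fold changes ran from 1.06 to 2.03 for Nppa, 1.496 to 2.19 for Nppb, −0.50 to −0.36 for Corin, −0.84 to −0.37 for Npr1 and 0.45 to 0.86 for Npr3. With total counts, added after seeing the data, leaving out a library gave 234 (without sham 1) to 3507 genes (without TAC 2) and 2 to 18 pathway genes (4 without sham 2, 5 without TAC 1). Corin was then not called without sham 1 (−0.60) or sham 2 (−0.63), and Npr1 was called without TAC 2 (−1.14). In these fits Nppa ran from 0.82 to 1.86 and Npr3 from 0.22 to 0.72, both lowest without sham 2.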
